A study of Talpa occidentalis with 6 samples.

Results

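The ovarian portion of the mole ovotestis was compared with the male testis by assigning each 200 bp bin of the genome a chromatin state in both tissues. The bins were those of scaffolds 1 to 17 of the assembly talOcc4 without scaffold 15, which gave 9580688 bins (1916 Mb) on 16 scaffolds, out of 10493388 segmented bins on 4454 scaffolds. No measured value entered this choice. The animals were Iberian moles (Talpa occidentalis), wild type and at postnatal day 7, with 2 samples for each tissue. The labels name the ovarian and the testicular part of the ovotestis as separate sources, and the testis as the third. The sources used here do not say whether a sample pooled animals. Each tissue is represented by 1 deposited segmentation for both of its samples, so no spread between samples, no test and no depth can be given, and every share below describes these 3 segmentations. The segmentations were used as deposited, and the sources used here do not say whether the numbering of states was shared between tissues.

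In this species females carry ovotestes, gonads that join an ovarian part, where oocytes and follicles form, to a testicular part that holds steroid-producing cells and lacks germ cells. The testis of the male holds germ cells together with Sertoli cells, which direct testis formation, and Leydig cells, which make androgens. ATAC-seq reads accessible DNA through a transposase that inserts sequencing adapters where nucleosomes leave room, and accessible stretches include promoters and enhancers, the elements that set which genes a cell type can use. The testicular portion comes from the female gonad, like the ovarian portion, and carries tissue of testis type.

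The 5 states form an ordered series, since 99.7% of the segment boundaries in the ovarian portion and 99.8% of those in the testis lie between adjacent state numbers. The deposited colours run from red for state 1, read here as the most accessible, to white for state 5. A lower state number is read below as more open chromatin on that basis alone, because no gene positions on this assembly were used to check it. The state makeup of both tissues was similar. State 1 covered 0.938% of the bins of the ovarian portion and 0.923% of those of the testis, state 2 covered 4.83% and 4.71%, state 3 covered 32.0% and 34.0%, state 4 covered 60.0% and 58.2%, and state 5 covered 2.24% and 2.10%. The testis was cut into finer pieces, with 825372 segments, while the ovarian portion had 731866 and the testicular portion 754126. The library numbers in the labels place both ovotestis portions in 1 series and the testis in another, so tissue and library series cannot be told apart in any difference from the testis.

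The state of the ovarian portion equalled that of the testis in 71.9% of the bins and differed in 28.1% (2688591 bins, 537.7 Mb). The ovarian portion had the lower state in 13.2% of the bins and the testis in 14.9%. Nearly all of these differences were of 1 state. Differences of 2 or more states took in 0.604% of the bins (57843 bins, 11.6 Mb), and differences of 3 or more took in 0.0183% (1749 bins). Of the latter, 387 bins (0.00404% of all) were lower in the ovarian portion and 1362 (0.0142%) were lower in the testis.

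State by state, states 2 and 3 were kept least and state 4 was kept most. Of the bins in state 1 in the ovarian portion, 65.4% were in state 1 in the testis, 30.8% in state 2, 3.40% in state 3, 0.365% in state 4 and none in state 5. State 2 was spread most widely. Of its bins in the ovarian portion, 50.7% were in state 2 in the testis, 41.4% in state 3, 4.55% in state 1, 3.39% in state 4 and 0.0127% in state 5. Of the bins in state 3, 62.6% kept the state, 31.8% were in state 4, 5.25% in state 2, 0.235% in state 1 and 0.0428% in state 5. State 4 made up the bulk of the genome. Of its bins in the ovarian portion, 78.7% were in state 4 in the testis, 19.9% in state 3, 0.828% in state 5, 0.488% in state 2 and 0.0232% in state 1. Of the bins in state 5, 71.1% kept the state, 28.6% were in state 4, 0.347% in state 3, 0.0107% in state 2 and 0.00140% in state 1.

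**Figure D1:**
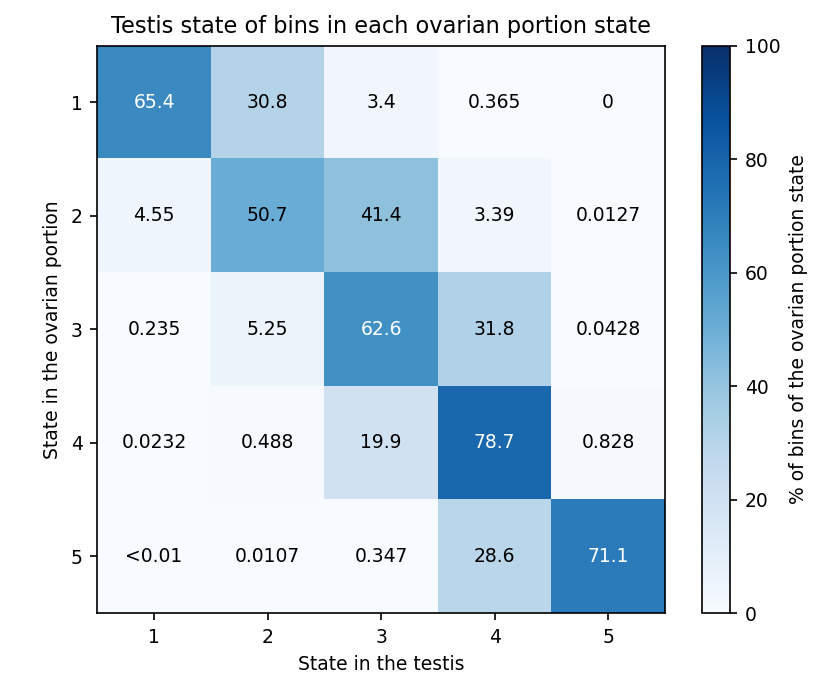
Share of the bins of each ovarian portion state (rows) that carry each state in the testis (columns), in percent of the row, over 16 scaffolds. The diagonal runs from 50.7% for state 2 to 78.7% for state 4, and most of the rest lies 1 state away.

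Read from the testis, the same table gives the state from which each testis state differs. Of the bins in state 1 in the testis, 66.5% were in state 1 in the ovarian portion, 23.8% in state 2, 8.14% in state 3 and 1.51% in state 4. The shares from states 3 and 4 were above the 3.40% and 0.365% of the opposite reading. Of the bins in state 2 in the testis, 52.0% were in state 2 in the ovarian portion, 35.6% in state 3 and 6.22% in state 4.

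Among states 1 to 3, steps of 1 state more often had the lower state in the ovarian portion, while jumps of 2 or 3 states among states 1 to 4 more often had it in the testis. State 1 in the ovarian portion met state 2 in the testis in 27703 bins, and the reverse held in 21047, a ratio of testis to ovarian portion of 0.760. States 2 and 3 were exchanged in 191638 bins with the lower state in the ovarian portion and in 160818 with the lower state in the testis, a ratio of 0.839. Without the 2 Mb at each scaffold end, an alternative chosen after seeing the data, these ratios were 0.790 and 0.928. The excess of the ovarian portion for states 2 and 3 was thus much smaller away from the ends (165336 against 153423 bins). The sides turned for jumps of 2 and 3 states. State 1 against state 3 was found in 3058 bins with the lower state in the ovarian portion and in 7193 with the lower state in the testis (ratio 2.35). State 2 against state 4 was found in 15711 and 28075 bins (ratio 1.79), and state 1 against state 4 in 328 and 1336 bins (ratio 4.07). The excess of the testis in jumps of 3 or more states was present on 16 of 16 scaffolds, and that in jumps of 2 or more on 15 of 16, the exception being scaffold 17. The testis also had the more numerous and shorter segments. The jumps were counted again without bins beside a boundary, which drops the shortest segments and keeps a minority of the jumps. The part of segment length in the excess of the testis was therefore not tested. Among bins away from segment boundaries in both tissues the ratios were 2.35 for states 1 and 3, 1.69 for states 2 and 4, and 7.33 for states 1 and 4, the last from 12 and 88 bins.

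The commonest exchange, between states 3 and 4, made up most of the difference by length. It ran to the lower state in the ovarian portion in 976083 bins (195.2 Mb) and to the lower state in the testis in 1144656 bins (228.9 Mb). States 4 and 5, the closed end of the series, were exchanged in 47614 bins with the lower state in the ovarian portion and in 61189 with the lower state in the testis. Jumps across state 4 were rare, and more of them had the lower state in the ovarian portion. State 5 in the testis met states 1 to 3 in the ovarian portion in 1372 bins, of which 297 lay on scaffold 2, and the reverse held in 770 bins, of which 179 lay on scaffold 2 (0.0143% and 0.00804% of all bins). This direction depended on the scaffolds: over every segmented scaffold, states 2 and 5 were exchanged in 89 bins with the lower state in the ovarian portion and in 191 with the lower state in the testis, and states 3 and 5 in 1861 and 1737.

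State 1 segments at the sites that both tissues shared had a higher mean length in the ovarian portion and the same median length, 600 bp, in both tissues. Of 30202 segments in the ovarian portion, 20498 overlapped a state 1 segment of the testis and 9704 did not. Of 34980 segments in the testis, 20925 overlapped and 14055 did not. The length that was not shared was divided differently. In the ovarian portion 45.4% of the unshared state 1 bins lay in overlapping segments against 18.5% in the testis, where 81.5% lay in segments of their own. Overlapping segments averaged 712 bp in the ovarian portion and 615 bp in the testis, and separate segments averaged 350 bp and 343 bp. Of the separate segments of the ovarian portion, 80.9% reached state 2 in the testis and 16.8% reached state 3 at best. Of the separate segments of the testis, 65.8% reached state 2 in the ovarian portion and 28.2% reached state 3 at best.

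The testicular portion followed the testis in slightly more of the differing bins than it followed the ovarian portion. It had the state of the testis in 51.7% of them, the state of the ovarian portion in 45.9%, a state strictly between in 1.15% and a state outside both in 1.23%. A state strictly between can occur only where the tissues differ by 2 or more states, which was 2.15% of the differing bins. Counted over all bins, the 3 tissues agreed in 60.1%, the ovarian portion alone stood apart in 14.5%, the testis alone in 12.9% and the testicular portion alone in 11.8%, and all differed in 0.666%. The order held on each scaffold: the share with the state of the testis ranged from 49.0% on scaffold 2 to 52.8% on scaffold 10, and the share with the state of the ovarian portion from 44.9% on scaffold 10 to 48.3% on scaffold 2. The testicular portion also left the common state of the other tissues. Where these had the same state, it kept state 1 in 89.5% of the bins, state 2 in 74.9%, state 3 in 75.9%, state 4 in 86.8% and state 5 in 94.6%.

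In steps of 1 state among states 1 to 4, the testicular portion sat mostly at the higher, more closed of the 2 states, whichever tissue held it. Over all its bins, states 1 to 5 covered 0.905%, 4.37%, 33.8%, 58.6% and 2.28%. In each pair below, that of states 4 and 5 included, the favoured state was also the commoner one over all bins. The part of these shares in the placement was not tested. Where the ovarian portion had state 1 and the testis state 2, it followed the testis in 62.1% of the bins and the ovarian portion in 34.2%. In the reverse case, state 2 in the ovarian portion and state 1 in the testis, it followed the ovarian portion in 50.1% and the testis in 45.4%. The higher state was thus the commoner outcome in both directions. For states 2 and 3 it followed the testis in 64.0% and the ovarian portion in 30.0% where the ovarian portion had the lower state, and the ovarian portion in 56.7% and the testis in 36.9% where the testis had it. For states 3 and 4 the same shares were 59.7% and 40.0%, and 52.4% and 47.1%. The closed end went the other way. Where the ovarian portion had state 4 and the testis state 5, the testicular portion followed the ovarian portion in 70.1% and the testis in 29.2%, and in the reverse case it followed the testis in 53.6% and the ovarian portion in 46.0%, so state 4 was the commoner outcome each time.

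**Figure D2:**
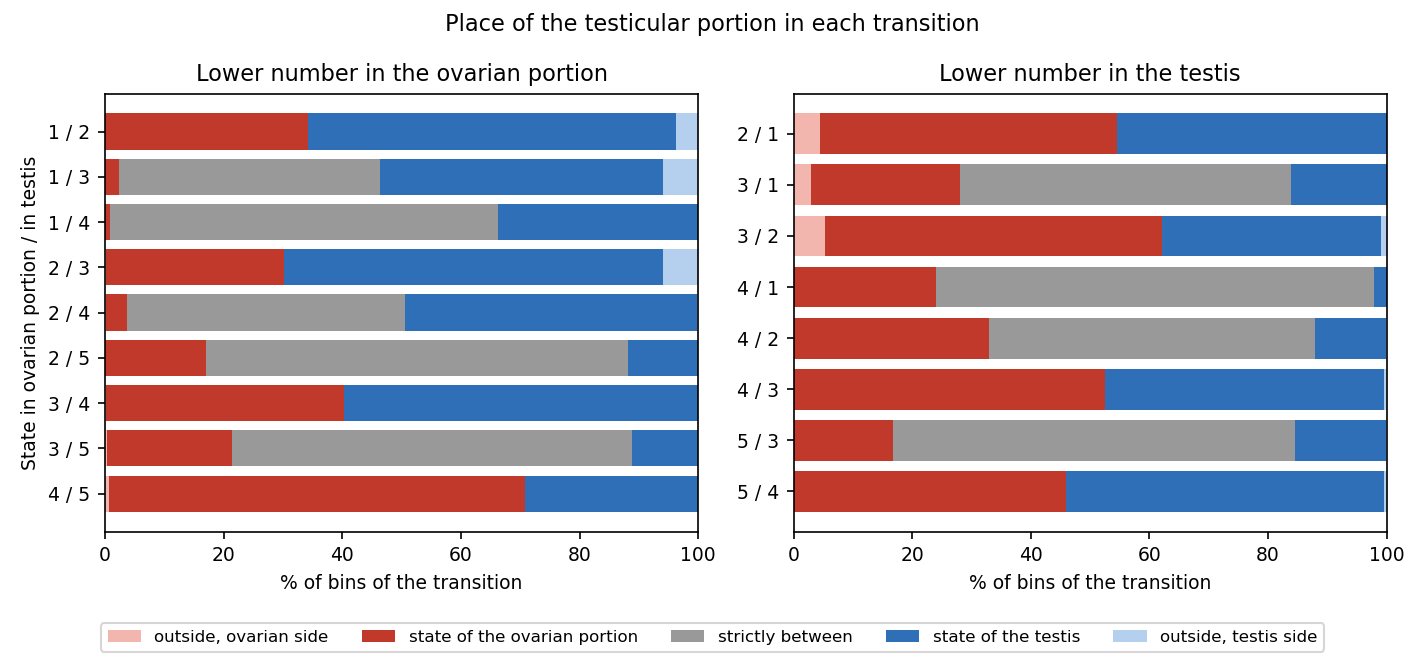
Place of the testicular portion in each transition with at least 50 bins, as shares of the bins in percent, with the state of the ovarian portion and then of the testis beside each bar. Left, transitions with the lower state in the ovarian portion, and right, those with the lower state in the testis. Blue takes more of the left bars for states 1 to 4 than of the right ones, and grey takes most of the jumps of 3 states.

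Averaging the shares of both directions of a pair of states gives each tissue the lower state with equal weight. On that average the testicular portion leaned to the testis in the open part of the series. For states 1 and 2 the averaged share was 53.8% with the testis and 42.1% with the ovarian portion. For states 2 and 3 it was 50.4% and 43.4%, and for states 3 and 4 it was 53.4% and 46.2%. Each of these pairs leaned to the testis on 16 of 16 scaffolds. For states 4 and 5 the averaged shares were 41.4% with the testis and 58.0% with the ovarian portion, and 0 of 16 scaffolds leaned to the testis. The testicular portion shares the library series of the ovarian portion, and the part of the series in the pair of states 4 and 5 was not tested.

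For jumps of 2 or more states the testicular portion lay strictly between in 53.3% of the bins, with the state of the testis in 24.3% and that of the ovarian portion in 21.4%. The direction of the jump divided these shares. Where the ovarian portion had the lower state (0.214% of all bins), the testicular portion was between in 48.2%, at the testis in 46.1% and at the ovarian portion in 4.49%. Where the testis had the lower state (0.39% of all bins), it was between in 56.1%, at the ovarian portion in 30.7% and at the testis in 12.4%. The testicular portion matched the lower state in 12.4% of the jumps toward the testis and in 4.49% of those toward the ovarian portion.

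The jumps among states 1 to 4 had the same asymmetry, and those to or from state 5 did not. Where the ovarian portion had state 1 and the testis state 3, the testicular portion had state 1 in 2.29% of the bins, state 2 in 44.0%, state 3 in 47.7% and state 4 in 6.02%. In the reverse case it had state 1 in 16.2%, was between in 55.7%, had the ovarian state 3 in 25.1% and lay beyond it in 2.96%. Where the ovarian portion had state 2 and the testis state 4, the testicular portion was at state 2 in 3.56%, between in 46.9% and at state 4 in 49.1%, and in the reverse case it was at state 2 in 11.9%, between in 55.1% and at state 4 in 32.8%. For state 1 in the ovarian portion against state 4 in the testis (328 bins), it was between in 65.2%, at the testis in 33.8% (95% Wilson interval 28.9% to 39.1%, counting error only) and at the ovarian portion in 0.915% (0.312% to 2.65%). For the reverse (1336 bins), it was between in 73.8%, at the ovarian portion in 24.1% (21.9% to 26.5%) and at the testis in 2.10% (1.45% to 3.01%). The rarest cells held few bins. State 5 in the ovarian portion met state 1 in the testis in 3 bins and state 2 in 23 bins, and the testicular portion was between in 100% and 82.6% of them. State 3 in the ovarian portion met state 5 in the testis in 1313 bins, with the testicular portion between in 67.5% and at the lower state in 21.1% (19.0% to 23.4%). The reverse held in 744 bins, with 67.7% between and 15.3% (12.9% to 18.1%) at the lower state. State 2 in the ovarian portion met state 5 in the testis in 59 bins, with 71.2% between and 16.9% at the lower state, against 0% at the lower state in the 23 reverse bins. State 1 in the ovarian portion met state 5 in the testis in 0 bins.

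The place of the testicular portion differed between short and long stretches. Neighbouring bins that differed in 1 direction were joined into runs. In single bins of 200 bp with the lower state in the testis, the testicular portion followed the testis in 40.9% and the ovarian portion in 56.9%. In runs of 5200 to 10000 bp these shares were 54.4% and 42.4%, and in the 67 longer runs they were 57.1% and 39.7%. With the lower state in the ovarian portion, length made little difference, and the share with the testis stayed between 56.3% and 59.9% over the same classes. Averaged over both directions, the share with the testis was 50.3% in single bins, against 47.7% with the ovarian portion, and 57.0% in runs of 5200 to 10000 bp, against 40.3%. The lean to the testis was thus wider in the broad differences than in single bins.

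The longest runs were domains that differed by 1 state over most of their length. In the direction of the ovarian portion, the longest spanned 25400 bp on scaffold 17 at 39169001 to 39194400, with state 3 in the ovarian portion, state 4 in the testis and a mean state of 3.46 in the testicular portion. Another of 22800 bp lay close to the start of scaffold 12, at 107001 to 129800, with mean states of 2.01 in the ovarian portion, 3.11 in the testicular one and 3.33 in the testis. In the direction of the testis, scaffold 14 held the longest, of 35400 bp, at 19603801 to 19639200, and a further one of 25600 bp at 19648401 to 19674000. Both were in state 5 in the ovarian portion, with mean states of 4 and 3.98 in the testis and 4.62 and 4.84 in the testicular portion. A run of 18200 bp on scaffold 8 at 3060001 to 3078200 had mean states of 3.93 (ovarian portion), 3 (testicular portion) and 2.89 (testis), and one of the same length on scaffold 17 at 24779801 to 24798000 had state 4 in the ovarian portion and state 3 in both others. In these last domains the testicular portion was at or close to the state of the testis.

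Joined into regions, differences of 2 or more states numbered 10245 with the lower state in the ovarian portion and 18193 with the lower state in the testis. Their median length was 400 bp in both directions, and the longest spanned 4600 bp and 2600 bp. Regions of 2 or more states with the lower state in the ovarian portion lay nearer to common open sites and to scaffold ends, but the sharper ones did not exceed all bins in nearness to open sites. Their median distance to a bin in state 1 in all 3 tissues was 45 kb, against 62.2 kb for those with the lower state in the testis and 59.8 kb for all bins. Of them, 19.7% were within 10 kb of such a bin, against 11.4% of those with the lower state in the testis and 15.4% of all bins. Of the regions of 3 or more states, 13.1% (lower in the ovarian portion) and 9.19% (lower in the testis) were within 10 kb, both under the share of all bins. Within 1 Mb of a scaffold end lay 4.58% and 0.676% of the regions of 2 or more states, 2.75% and 0.324% of those of 3 or more, and 1.67% of all bins.

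The sharpest contrast, state 1 in one tissue and state 4 or 5 in the other, was found in 250 regions of the ovarian portion and 914 of the testis (0.00342% and 0.014% of all bins). Their median length was 200 bp, and the longest spanned 800 bp in both directions. The testicular portion was mostly on the closed side in both sets, and less so in the set of the testis. In the 914 regions open in the testis, its mean state was nearer the testis in 29.0% (95% Wilson interval 26.1% to 32.0%, counting error only) and nearer the ovarian portion in 68.8%. In the 250 regions open in the ovarian portion, it was nearer the ovarian portion in 14% (10.2% to 18.8%) and nearer the testis in 84.8%. Partial opening in the testicular portion was also the commoner in the set of the testis: its mean state was 2 or lower in 27.7% of the testis regions and in 14% of the ovarian regions, and it was in states 4 or 5 throughout in 25.3% and 33.2%. A bin in state 1 was found in 23 of the 914 regions (2.52%) and 3 of the 250 (1.2%). Over all its bins, the testicular portion was in state 1 in 0.905%, state 2 in 4.37%, state 3 in 33.8%, state 4 in 58.6% and state 5 in 2.28%. The closed side is thus its common condition and not particular to these regions.

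**Figure D3:**
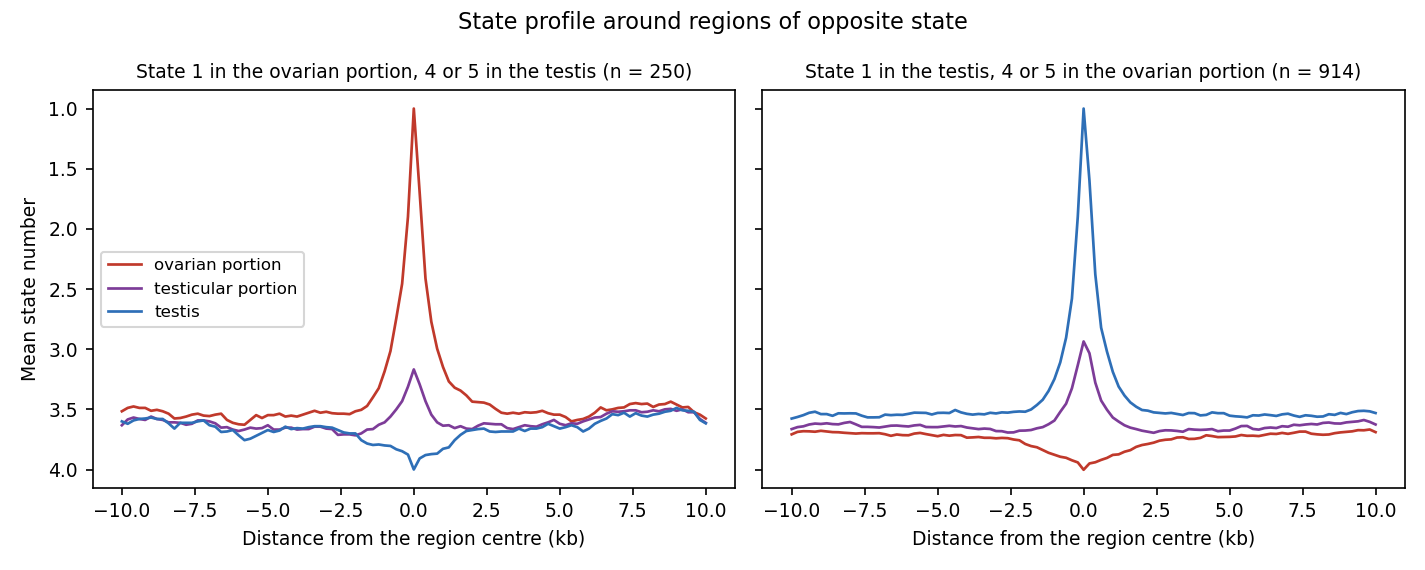
Mean state number by distance from the centre of the regions in kb, with the axis turned so that more open states stand higher, for the 250 regions open in the ovarian portion (left) and the 914 open in the testis (right). The centre values of the ovarian portion and the testis follow from how the regions were chosen, while that of the testicular portion does not: it averaged 3.17 on the left and 2.94 on the right.

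Over all bins the mean states were 3.58 in the ovarian portion, 3.57 in the testicular one and 3.56 in the testis. Away from the centre of these regions the gap between the compared tissues narrowed. At 10 kb before it, the gap kept its direction and was still wider than over all bins. At 10 kb before the centre, the mean state in the testis set was 3.71 in the ovarian portion, 3.66 in the testicular one and 3.58 in the testis, and in the ovarian set it was 3.52, 3.63 and 3.60. After the centre the gap of the ovarian set was narrower. At 10 kb after it the ovarian portion had 3.58 and the testis 3.62, and at 9600 bp after it both had 3.52. In the testis set the values at 10 kb after the centre were 3.69 and 3.53. The testicular portion formed a small peak at the centre in both sets. At the centre it averaged 2.94 in the testis set, against 3.68 at 2 kb before it, and 3.17 in the ovarian set, against 3.72.

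Single regions show how the tissues compare bin by bin. In the ovarian set 1 region spanned 800 bp and 10 spanned 600 bp, of which the first 4 by scaffold and start are given. On scaffold 17 at 3302401 to 3303200, all 4 bins were in state 1 in the ovarian portion, in state 3 in the testicular portion and in state 4 in the testis. Within 50 kb around it the ovarian portion had these 4 state 1 bins alone, and the other tissues had none. On scaffold 1 at 55765401 to 55766000, 3 bins were in state 1 in the ovarian portion and in state 4 in the testis, with states 3, 3 and 4 in the testicular portion. That region lay in a richer neighbourhood, with 19 state 1 bins within 50 kb in the ovarian portion, its own 3 included, and 9 in each other tissue. On scaffold 3 at 23707801 to 23708400, 3 bins were in state 1 in the ovarian portion, in state 2 in the testicular portion and in state 4 in the testis, so the testicular portion sat on the ovarian side. On scaffold 2, regions at 34671401 to 34672000 and at 35515001 to 35515600 had 3 bins each in state 1 in the ovarian portion, state 3 in the testicular portion and state 4 in the testis.

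The longest regions open in the testis spanned 800 bp, a length that 9 of the 914 reached, and the 5 described are the first of these by scaffold and start. Each had 4 bins in state 1 in the testis and in state 4 in the ovarian portion. The testicular portion took different places in them. On scaffold 4 at 133876201 to 133877000 it was in state 2 throughout, and at 91753401 to 91754200 of the same scaffold it had states 3, 2, 2 and 2. On scaffold 6 at 45856201 to 45857000 it had states 3, 3, 2 and 2. On scaffold 4 at 125404201 to 125405000 it was in state 3 throughout, and on scaffold 1 at 26102601 to 26103400 it had states 4, 3, 3 and 4. The ovarian portion had no state 1 bin within 50 kb of any of the 5, and the testis had between 4 and 10, counting the 4 of the region itself. At the scaffold 6 region the testis had these 4 alone. The testicular portion had 3 near the first, 2 near the scaffold 4 region at 125404201 and none near the other three.

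The longest regions differing by 3 or more states also included a pair in state 2 in the ovarian portion and state 5 in the testis. They spanned 800 bp each, on scaffold 2 at 46897401 to 46898200, where the testicular portion was in state 3, and on scaffold 13 at 57372801 to 57373600, where it had states 4, 4, 5 and 5. Longer stretches of states 2 and 3 against state 5 lay on scaffold 2 (33081201 to 33083600) and scaffold 17 (47817201 to 47819600), both 2400 bp and both in state 4 in the testicular portion. In the opposite direction, 2600 bp on scaffold 4 at 133339401 to 133342000 were in state 5 in the ovarian portion, state 4 in the testicular portion and state 3 in the testis. In these last stretches the testicular portion lay in the middle throughout.

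At the scale of 1 Mb, the mean state was compared, which counts each step between neighbouring states as equal. Over 1913 windows filled to at least 80%, the testis minus the ovarian portion had a median of -0.031 states and ranged from -0.348 to 0.569. The ovarian portion was lower by at least 0.2 states in 110 windows (5.75%) and the testis in 94 (4.91%). Which tissue had more such windows was not stable. The counts were 281 and 469 at a margin of 0.1 states, 88 and 92 without the 2 Mb at each scaffold end, and 86 and 88 without scaffold 17. Scaffold 17 held 24 of the 110 windows and scaffold 7 held 16, while scaffold 2 held 15 of the 94 and scaffold 12 held 13. The windows of the 2 directions had a different makeup. Those lower in the ovarian portion were rich in open states, with a mean of 16.01% in state 2 in the ovarian portion against 9.64% in the testis, and 12.3% in the testicular portion. Those lower in the testis were poor in them and differed mainly by state 3 against state 4: state 3 averaged 21.7% in the ovarian portion, 41.2% in the testis and 38.2% in the testicular portion.

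The testicular portion lay between the others in most of these windows. Of the 110 windows lower in the ovarian portion, it was between in 106, nearer the testis in 72 of those and nearer the ovarian portion in 34. Of the 94 windows lower in the testis, it was between in 72, nearer the testis in 48 and nearer the ovarian portion in 24, and in the other 22 it went past the testis. Of the 110, it went past the ovarian portion in 3 and past the testis in 1.

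**Figure D4:**
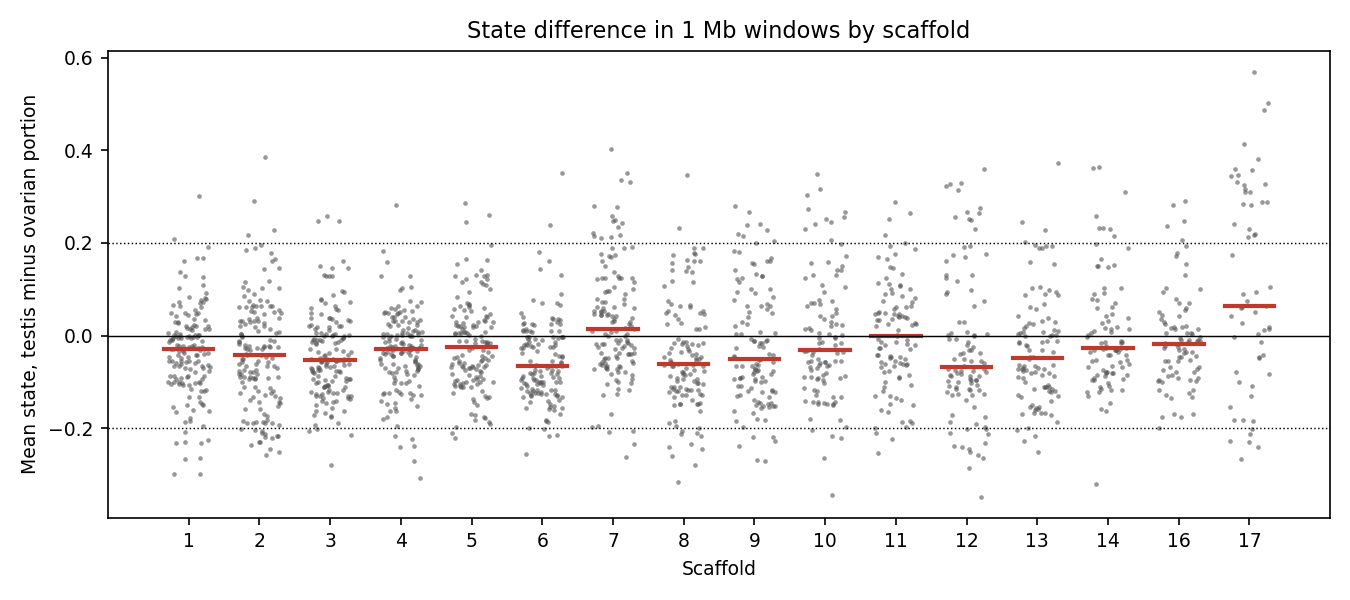
Mean state in the testis minus that in the ovarian portion for each 1 Mb window (grey points) by scaffold, with the median of each scaffold in red and dotted lines at 0.2 states in both directions. Positive values mean a lower state in the ovarian portion, and scaffold 17 reaches 0.569.

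The largest window differences clustered on scaffold 17. Its window from 50000001 to 51000000 had mean states of 2.65 in the ovarian portion, 2.94 in the testicular one and 3.22 in the testis. State 2 covered 31.9%, 22.1% and 13.8% of it, and state 4 covered 7.58%, 25.3% and 40.8%. The ovarian portion had the lower state in 56.2% of its bins and the testis in 0.9%. The windows from 47000001, 48000001 and 51000001 differed by 0.487, 0.501 and 0.414 states, so that 4 of the 5 largest differences lay within 5 Mb, and the testicular portion lay between in all 4. The remaining one of the 5, on scaffold 7 from 91000001 to 92000000, had mean states of 2.97, 3.20 and 3.37 in the same order of tissues. Over the whole of scaffold 17, the ovarian portion had the lower state in 21.2% of the bins and the testis in 10.9%. On the other 15 scaffolds the ovarian portion ranged from 11.1% to 16.2% and the testis from 12.7% to 16.2%. Scaffold 15, which stands outside the comparison, had shares of 19.4% and 3.38%.

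In the direction of the testis, 4 of the 5 largest differences were in windows where state 4 was the commonest state of the ovarian portion. On scaffold 12 from 93000001 to 94000000, state 3 covered 8.08% in the ovarian portion, 40.9% in the testicular one and 35.1% in the testis. On scaffold 10 from 94000001 to 95000000 it covered 7.78%, 46.2% and 39.2%, and on scaffold 8 from 2000001 to 3000000 it covered 21.3%, 57.5% and 46.5%. In all 3 windows the mean state of the testicular portion went past that of the testis. On scaffold 4 from 142000001 to 143000000 state 3 covered 17.5%, 33.6% and 47.8%, so the testicular portion lay between. On scaffold 14 from 19000001 to 20000000, the window of the longest run, state 5 covered 30.9% in the ovarian portion, 25.7% in the testicular one and 7.98% in the testis, and state 1 covered 7.14% in the testicular portion against 0.32% and 0.4%.

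Regions of 2 or more states were found in nearly every window, 1883 windows in the direction of the ovarian portion and 1886 in that of the testis, with 10 or more in 163 and 822. In the windows with the most, the testicular portion did not always take the same side. On scaffold 2 from 35000001 to 36000000, 71 regions of 2 or more states had the lower state in the ovarian portion and 2 had it in the testis. The testicular portion was nearer the ovarian portion in 34 of the 71, nearer the testis in 12 and midway in 25. Over all differing bins of that window it followed the ovarian portion in 66.0% and the testis in 25.8%. On scaffold 14 from 23000001 to 24000000, with 33 such regions and 0 in reverse, it followed the ovarian portion in 69.4% and the testis in 26.03%. In both windows the testis stood apart from the ovotestis portions in most differing bins. On scaffold 17 from 48000001 to 49000000, with 44 regions against 1, it followed the testis in 52.8% and the ovarian portion in 43.7%. In the direction of the testis, scaffold 2 from 113000001 to 114000000 held the most, 43 regions against 11, with the testicular portion at the ovarian state in 55.9% of differing bins and at the testis state in 36.4%. Scaffold 9 from 65000001 to 66000000 held 42 against 6, with 39.0% at the ovarian state and 56.1% at the testis state.

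The ends of the scaffolds were more open in the ovarian portion. Within 0.25 Mb of an end, the ovarian portion had the lower state in 34.96% of the bins and the testis in 4.91%. From 0.5 to 1 Mb these shares were 20.9% and 8.72%, from 1 to 2 Mb 15.5% and 13.8%, from 5 to 10 Mb 12.4% and 16.8%, and beyond 20 Mb 12.8% and 14.7%. States 2 and 4 differed most. In the first 0.25 Mb state 2 covered 25.6% in the ovarian portion, 16.6% in the testicular one and 11.1% in the testis, against 3.88%, 3.41% and 4.05% beyond 20 Mb. State 4 covered 19.2%, 26.9% and 33.9% of the first 0.25 Mb. The testicular portion was the most open of the 3 farther in: from 1 to 2 Mb its mean state differed from that of the ovarian portion by -0.129, and that of the testis by 0.0163. The difference between the ovarian portion and the testis was seen at nearly every end. Over the outermost 1 Mb, the mean state was lower in the ovarian portion at 31 of 32 ends, by up to 0.374 states. The remaining end, the start of scaffold 1, was in state 5 in all tissues over 99.96% of its bins. The testicular portion lay between at 21 of the 32 ends. Leaving aside the start of scaffold 1, it was nearer the ovarian portion except at the starts of scaffolds 6 and 11 and the end of scaffold 13. At some ends it was more open than the ovarian portion, as at the end of scaffold 6 (-0.177, against 0.09 for the testis). Within 0.25 Mb of an end, pooled over the ends, it was nearer the testis (0.172 against 0.314). Base composition and repeats of the ends were not used here, and the library series of the testis cannot be told apart from its tissue.

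**Figure D5:**
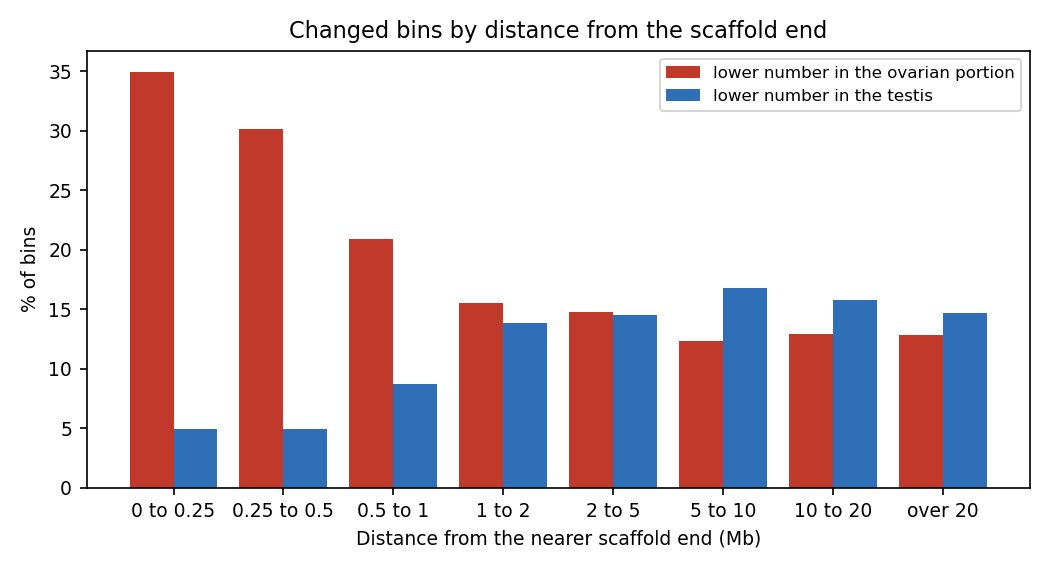
Share of bins in percent with the lower state in the ovarian portion (red) or in the testis (blue) by distance from the nearer scaffold end in Mb, over 16 scaffolds. Red falls from 34.96% at the ends to 12.4% at 5 to 10 Mb and is 12.8% beyond 20 Mb. Blue rises from 4.91% to 16.8% at 5 to 10 Mb and is 14.7% beyond 20 Mb.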

How the data were processed

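ATAC-seq was done on 6 samples of 3 tissues. Per the labels' protocols, gonads were dissociated to single cells and 50000 cells were tagmented per reaction. The deposited values are chromatin state numbers, 1 to 5, of segments made of 200 bp bins on talOcc4, with 1 file per tissue. How the mole files were segmented was not given in the sources used here. STAR 2.6.1d and mm9 appear in the submitters' processing notes, with no role. Replicate samples could not be separated, and sequencing depth is unknown.

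Segments were expanded to 200 bp bins with Python 3.11.15 and numpy 2.4.6, and the states of the tissues were cross-tabulated. The first bin of each scaffold carried no state. In each differing bin the testicular portion was placed at a compared state, strictly between or outside. Regions are runs of neighbouring bins, and positions are 1-based. Intervals are Wilson 95% intervals from scipy 1.17.1, which treat neighbouring regions or bins as independent and cover counting error only. Functions were tested on simulated data. Named regions are the 5 longest per direction differing by 3 or more states or in state 1 against 4 or 5, and named windows the 5 with the largest mean difference per direction. Windows rich in regions, runs across state 5, longest runs and scaffold ends were chosen after values were seen. The comparison and its tests were chosen with earlier results of these data known. Marker genes could not be placed, since the deposited gene models used here lie on talOcc3 and the gene table used here names no talOcc4 scaffold. Promoter states were therefore not analysed here, and the tissue labels were not checked against markers.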

Additional observations from a re-analysis of the deposited data

How the results depend on the processing

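With scaffold 15 added, 72.2% of bins had the same state in both tissues, the lower state was in the ovarian portion in 13.5% and in the testis in 14.4%, and 0.611% differed by 2 or more states. The testicular portion then followed the ovarian portion in 45.5% and the testis in 52.1% of differing bins, and lay between in 52.9% of jumps of 2 or more. Over every segmented scaffold the same, testis-lower and 2-state shares were 72.3%, 14.5% and 0.618%, and the placements 45.7%, 51.9% and 52.3%. In 1000 bp bins the first 4 shares were 72.1%, 13.1%, 14.8% and 0.658%, with 51.6% at the testis and 49.0% between. Away from segment boundaries they were 78.2%, 10.2%, 11.6% and 0.139%, with placements of 45.7%, 53.3% and 56.6%. Differences of 2 or more states were thus much rarer there, at 0.139% of the bins against 0.604% in the main setting. Without state 5 the same, ovarian-lower and testis-lower shares were 72.3%, 13.1% and 14.7%, and the placements 45.5%, 52.2% and 52.8%. With 3 merged levels the shares were 73.6%, 12.4%, 14.02% and 0.475%, and the placements 45.6%, 52.4% and 51.9%. Leaving out each scaffold in turn gave 71.9% to 72.1% for the same state, 12.9% to 13.3% and 14.8% to 15.04% for the directions, 45.7% to 45.9% and 51.7% to 52.0% for the placements, and up to 53.8% between. Without the 2 Mb at each scaffold end, an alternative chosen after seeing the data, the shares were 72.1%, 12.9%, 15.03% and 0.598%, with 52.8% between.

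Regions of 2 or more states numbered 5814 and 10677 (ovarian portion and testis lower) at a minimum of 400 bp, and 291 and 925 for 3 or more states. Regions in state 1 against 4 or 5 numbered 66 and 337 at that minimum. Windows numbered 281 and 469 at a margin of 0.1, 5 and 0 at 0.4, and 275 and 244 in 500 kb windows, against 110 and 94. Which tissue had more turned at the margin of 0.1, without the 2 Mb at each end (88 and 92) and without scaffold 17 (86 and 88, also chosen after seeing the data). In all, 87 alternatives of 13 results were run. The cause of these shifts was not tested. No paired analysis was possible because 1 segmentation stands for both samples of a tissue, and no replicate could be left out. Depth per sample is unknown, so what it limits could not be measured.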
